A study of Homo sapiens with 12 samples.

Results

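The response to 77-39 was examined in the 6 RNA-seq libraries labelled COV434, which are 6 of the 12 libraries of the series. The label describes COV434 as a wild-type granulosa cell tumor line, and 77-39 is a SIRT3 inhibitor. Of these libraries, 3 are titled as controls and 3 as given 77-39 for 72 h. The treatment text, with a dose of 10 μm/ml, stands on all 12 libraries, controls included, and its unit is not clear. Other experiments on the compound gave its doses in μM. The other 6 libraries are labelled KGN, a granulosa cell tumor line also labelled wild-type, with 3 control and 3 treated libraries. The study gives the tumor of KGN as adult-type and that of COV434 as juvenile-type. All groups were grown in the same medium with serum, and no vehicle is named for the controls. The members were the libraries with these titles, with same-numbered control and treated libraries taken as pairs, and the 12060 genes whose FPKM averaged 1 or more over the 6 libraries were tested. FPKM is the number of fragments per kilobase of gene, scaled to the depth of the library. Fold changes are differences in log2(FPKM + 1) between treated and control libraries, which understates the change of genes with low levels.

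SIRT3 is the main NAD-dependent deacetylase of mitochondria, where it acts on enzymes of fuel oxidation and on antioxidant proteins. Several of the gene groups below have known switches. Low oxygen stabilizes HIF, which pairs with ARNT and switches on genes of glycolysis and acid export. Type I interferon acts through STAT2 and IRF9, among others, on antiviral genes, damaged proteins act through HSF1 on chaperone genes, and p53 switches on genes that stop the cell cycle.

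The 6 libraries held 16440143 to 18280415 reads on genes, recovered as whole reads from FPKM and gene length, and genes of the mitochondrial genome took 7.71% to 13.5% of them, with the highest share in treated library 1. Markers went against the label. COV434 cells are known for having lost SMARCA4 and SMARCA2, the catalytic subunits of the SWI/SNF remodelling complex, but SMARCA4 stood at 6.51 to 12.6 FPKM and SMARCA2 at 4.51 to 6.48 FPKM. These are RNA levels, which do not show whether the proteins were present. The granulosa markers FOXL2 (11.5 to 14 FPKM), CYP11A1 (37.1 to 52.2 FPKM) and AMH (5.45 to 9.14 FPKM) were present, while NR5A1, FSHR and WT1 had no reads in any of the 6 libraries. A count of 0 allows up to 3 reads, or 0.168 to 0.200 FPKM for a gene of 1 kb. Of the 15 granulosa markers, 6 had a mean of at least 1 FPKM in the controls and 6 in the treated libraries, and their summed level was 95 to 98.2 FPKM in the controls and 78.6 to 89.4 FPKM after treatment. Keratins of simple epithelia were high (KRT8 at 137 to 264 FPKM, KRT18 at 161 to 223 FPKM), with CDH1 and EPCAM under 0.3 FPKM. In the libraries labelled KGN, SMARCA2 stood at 0.00296 to 0.0087 FPKM (13 reads in all) and SMARCA4 at 2.25 to 2.6 FPKM, WT1 at 45.9 to 61.4 FPKM and FOXL2 at 0 to 0.0195 FPKM. Leukocyte and red cell markers PTPRC, CD68, LYZ and HBB had 1 read in all between them in the libraries labelled COV434. The endothelial markers PECAM1 and VWF had 66 and 29 reads there. CDH5, the only tested gene of the immune and blood cell list, went from 1.98 to 0.506 FPKM (log2 fold change -0.98, adjusted p = 0.0622 in the limma fit below). The cells are therefore called the libraries labelled COV434 throughout.

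In the blocked limma fit, 39 genes were upregulated and 48 were downregulated by 77-39 at an adjusted p-value under 0.05, which is 0.323% and 0.398% of the genes tested (0.721% in either direction). At an unadjusted p-value under 0.05 826 were higher (6.85%) and 913 lower (7.57%), or 14.4% in either direction, and the median fold change of all genes was -0.02. All 87 genes moved the same way in each of the 3 pairs, and in 83 of them the treated and control libraries did not overlap. The genes were called on these same pairs, so neither count is separate support for the calls. Over all genes, treated libraries lay wholly above the controls for 6.23% of genes and wholly below for 8.16%. Except for CA9 at 0.000171, adjusted p-values were close to the threshold, from 0.022 to 0.05, and the count depended on library number 2. Without that pair no gene was upregulated and 1 was downregulated (398 higher and 430 lower at an unadjusted p-value under 0.05), and without the block the numbers were 1 and 4 (424 and 541). All 87 kept their direction under each alternative in which they were tested. For the fits without 1 pair this was fixed in advance, since each gene had the same sign in all 3 pairs. The labels do not say that the libraries came from separate cultures, and the study speaks of independent experiments only in general. The p-values of the blocked fit therefore measure the spread between the differences of these 3 pairs, which may be technical. In bulk RNA, fewer cells of a kind and less RNA per cell cannot be told apart.

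**Figure D1:**
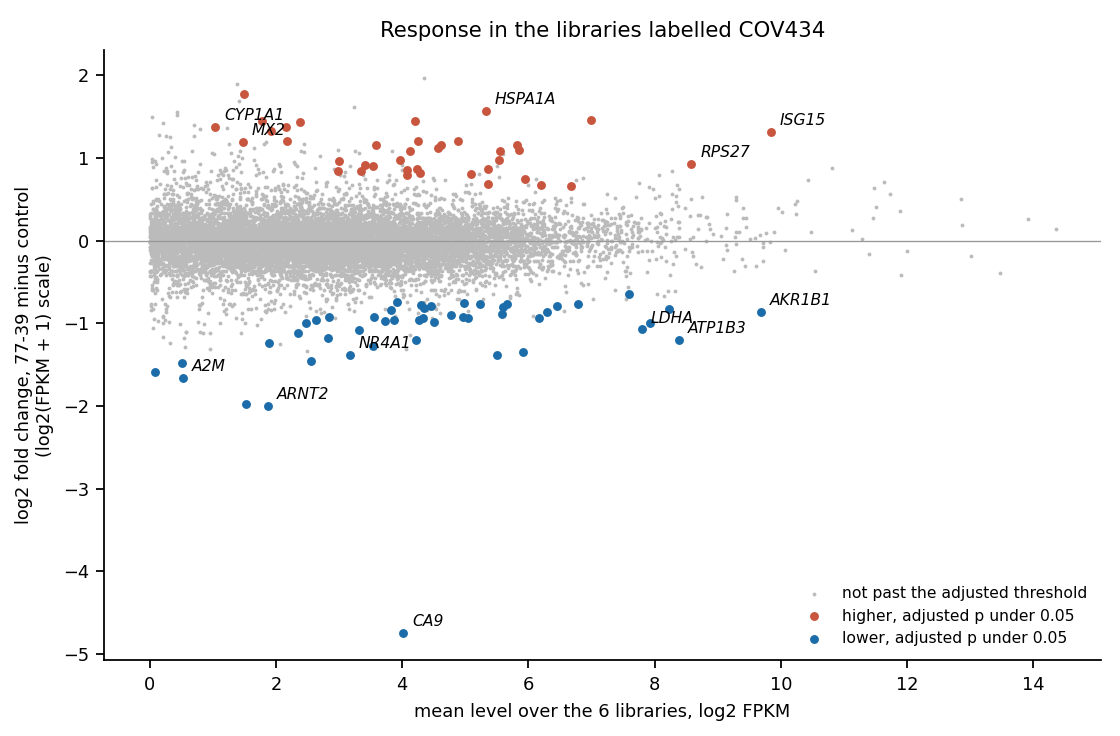
Mean level over the 6 libraries labelled COV434 (x axis, log2 FPKM) against the log2 fold change of 77-39 over control (y axis, log2(FPKM + 1) scale) for the 12060 genes tested. The 39 upregulated genes are red and the 48 downregulated genes blue, and CA9 stands alone at -4.74.

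Genes that low oxygen switches on were downregulated, and CA9 showed the largest change of any gene tested. CA9, a cell-surface carbonic anhydrase, was at 23.7, 30.4 and 42.6 FPKM in control libraries 1 to 3 and at 0.0800, 0.0729 and 0.536 FPKM in treated libraries 1 to 3. This is 2708 reads in the controls against 20 reads after treatment, with no overlap (log2 fold change -4.74 ± 0.14 SE, adjusted p = 0.000171, n = 3 pairs). Of 29 hypoxia targets outside glycolysis, 26 were tested, 7 fell at an adjusted p-value under 0.05 and none rose. Without adjustment, 19 passed the same threshold as lower and 1 as higher. The median of the list was -0.54, and -0.63, -0.61 and -0.57 in pairs 1 to 3.

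The other 6 that fell have separate roles. ADM, the vasodilator peptide adrenomedullin, went from 16.7 ± 3.00 to 6.53 ± 2.41 FPKM (SD, n = 3). EGLN3, an oxygen-sensing prolyl hydroxylase that marks HIF for destruction, went from 6.22, 4.52 and 6 FPKM in the controls to 1.90, 1.32 and 2.17 FPKM. BNIP3 and BNIP3L, receptors that direct mitochondria to autophagy, had log2 fold changes of -1.20 and -0.96. NDRG1, a stress-response gene, and BHLHE40, a transcriptional repressor of the clock, had log2 fold changes of -1.38 and -0.80. All 6 had every treated library below every control library. VEGFA, the angiogenic factor on the same list and named here after its values were seen, had a log2 fold change of -0.30 with an adjusted p of 0.576.

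Glycolysis moved in the same direction. LDHA, which turns pyruvate into lactate, was at 283, 302 and 319.9 FPKM in the controls and at 146, 133 and 150.0 FPKM after treatment, so that the groups were far apart. Its log2 fold change was -1.07 ± 0.10 (SE, adjusted p = 0.0257). PGK1, the first ATP-forming kinase of the pathway, and SLC16A3, the lactate exporter, also fell, with log2 fold changes of -0.83 and -0.89. Of 22 tested members, these 3 fell at an adjusted p-value under 0.05, 17 were lower at an unadjusted p-value under 0.05 and none was higher. The median was -0.48, with -0.60, -0.43 and -0.54 in the 3 pairs.

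The promoters of CA9, LDHA and BHLHE40 are shown because these genes fell together and carry the core of the hypoxia response element. Each is the 250 bases before the RefSeq start on GRCh38.p14, read 5′ to 3′ along the gene, with every match to ACGTG on either strand in capitals.
CA9 (chr9:35673678-35673927, plus strand): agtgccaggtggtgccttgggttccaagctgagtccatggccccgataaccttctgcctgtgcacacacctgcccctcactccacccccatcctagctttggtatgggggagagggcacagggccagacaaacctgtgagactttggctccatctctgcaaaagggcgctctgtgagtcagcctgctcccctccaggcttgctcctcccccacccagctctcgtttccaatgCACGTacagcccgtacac
LDHA (chr11:18394313-18394562, plus strand): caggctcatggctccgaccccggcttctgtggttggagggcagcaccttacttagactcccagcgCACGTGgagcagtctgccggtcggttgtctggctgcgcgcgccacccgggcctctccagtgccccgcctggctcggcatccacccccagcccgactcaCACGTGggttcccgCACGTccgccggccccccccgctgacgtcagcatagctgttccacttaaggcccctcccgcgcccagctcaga
BHLHE40 (chr3:4979187-4979436, plus strand): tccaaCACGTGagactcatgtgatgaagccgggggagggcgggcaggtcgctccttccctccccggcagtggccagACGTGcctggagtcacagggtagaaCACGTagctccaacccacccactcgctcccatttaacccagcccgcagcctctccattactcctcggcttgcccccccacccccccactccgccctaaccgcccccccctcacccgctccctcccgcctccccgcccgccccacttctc
CA9 held 1 such stretch, 18 bases before its start, and LDHA and BHLHE40 held 3 each. RefSeq gave a promoter for 22 of the 26 tested hypoxia targets, of which 14 (63.6%) held ACGTG, and for 21 glycolysis members, of which 7 (33.3%) held it. The share was 38.1% among heat shock genes and 35.0% among immediate early genes. It was 24.6% of the 8520 tested genes with a promoter and 18.7% of all 27305 promoters. A match is a description of the letters and not a site of binding. The letters are also part of CACGTG, the E-box, to which other factors bind.

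**Figure D2:**
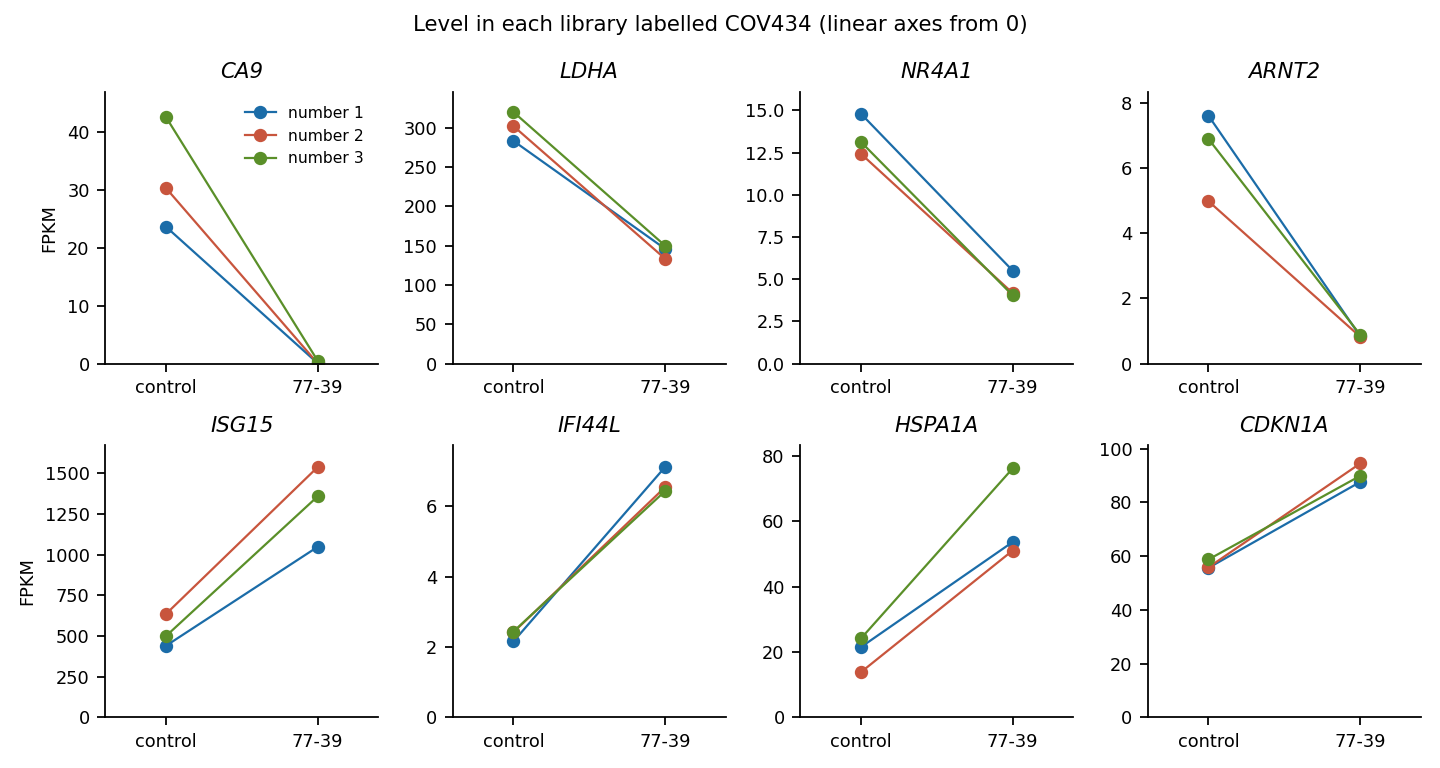
FPKM (y axes, linear from 0) of 8 genes in each control and 77-39 library labelled COV434, with lines joining libraries of the same number. For each of the 8 genes the 3 treated libraries lie all above or all below the 3 controls, and CA9 falls from between 23.7 and 42.6 FPKM to under 1 FPKM.

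Among the bHLH-PAS factors themselves, ARNT2 was downregulated and ARNT was not called. ARNT2, a partner of HIF and AHR, was at 7.61, 4.99 and 6.89 FPKM in the controls and at 0.846, 0.826 and 0.888 FPKM after treatment (log2 fold change -2 ± 0.16 SE, adjusted p = 0.022). HIF1A stood at 66.9 FPKM in the controls and 45.8 FPKM in the treated libraries, with an adjusted p of 0.379, and ARNT at 10.8 and 10.7 FPKM, with an adjusted p of 0.985. Both were named after their values were seen. CYP1A1, the classical target of AHR, rose from 0.615, 0.685 and 0.748 FPKM to 2.57, 3.35 and 4.38 FPKM (log2 fold change 1.38 ± 0.17 SE, adjusted p = 0.0369). AHRR, the repressor of AHR, had a log2 fold change of 0.50 and an adjusted p of 0.204. Of the 17 tested members of this axis, 2 fell and 1 rose at an adjusted p-value under 0.05, and the median was 0.01.

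Interferon-stimulated genes were upregulated as a group. Of 48 listed genes, 44 were tested, and the fold change was above 0 in all 44. At an adjusted p-value under 0.05, 11 rose and none fell. As many as 34 were higher at an unadjusted p-value under 0.05, and in 29 the treated libraries lay wholly above the controls. The median log2 fold change was 0.59, with 0.85, 0.58 and 0.48 in pairs 1 to 3, against -0.02 over all genes tested.

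The modifier ISG15 was the most abundant of the 11. It stood at 439, 634 and 499 FPKM in the controls and at 1047, 1537 and 1357 FPKM after treatment, with no overlap (log2 fold change 1.32 ± 0.10 SE, adjusted p = 0.022). UBE2L6, the conjugating enzyme for ISG15, went from 2.38 ± 0.608 to 8.09 ± 0.396 FPKM and had the largest fold change of the list (1.44 ± 0.16 SE). USP18, the protease that takes ISG15 off proteins, went from 13.1 ± 1.54 to 24.8 ± 3.14 FPKM (SD, n = 3). HERC5, the main ligase for ISG15 and named after its values were seen, was not called (log2 fold change 0.38, adjusted p = 0.444).

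Antiviral effectors made up most of the rest. OAS2, which makes the second messenger that activates RNase L, was at 15.4, 14.4 and 14.4 FPKM in the controls and 39.8, 34.0 and 29.6 FPKM after treatment. OASL, its relative without that activity, had a log2 fold change of 0.98. MX2 (1.20), a dynamin-like GTPase, and TRIM22 (1.33), a ubiquitin ligase, rose from under 3 FPKM. IFI44 and IFI44L, which are neighbours on chromosome 1, each had a log2 fold change of 1.21, and IFI35 and IFI27 had 1.08 and 0.69. For IFI27 the lowest treated library, at 31.6 FPKM, lay below the control libraries 2 and 3. The transcription factors STAT2 and IRF9 of the pathway, named after their values were seen, had log2 fold changes of 0.78 (adjusted p = 0.0762) and 0.19 (adjusted p = 0.705).

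Peptide presentation by MHC class I showed a smaller shift. Of 16 tested members, PSMB9, a subunit of the immunoproteasome, rose at an adjusted p-value under 0.05, from 4.66, 10.2 and 6.67 FPKM to 10.6, 16.8 and 14.7 FPKM. Without adjustment 8 members were higher at that threshold and none was lower, and the median was 0.30. Outside the lists, the chemokine CCL5 rose from 22.3, 46.8 and 36.4 FPKM to 57.7, 93.8 and 81.6 FPKM (log2 fold change 1.16 ± 0.11 SE), and RARRES3, a gene induced by retinoic acid, had a log2 fold change of 1.12.

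The promoters of ISG15 and IFI44L are shown because both genes rose and carry the core of the interferon-stimulated response element. Matches to GAAANNGAA on either strand are in capitals.
ISG15 (chr1:1013247-1013496, plus strand): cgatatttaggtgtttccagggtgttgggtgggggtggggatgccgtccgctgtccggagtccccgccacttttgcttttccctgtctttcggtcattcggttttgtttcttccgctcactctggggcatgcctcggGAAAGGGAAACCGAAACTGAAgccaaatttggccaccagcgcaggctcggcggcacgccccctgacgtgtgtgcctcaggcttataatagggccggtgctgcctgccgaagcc
IFI44L (chr1:78620198-78620447, plus strand): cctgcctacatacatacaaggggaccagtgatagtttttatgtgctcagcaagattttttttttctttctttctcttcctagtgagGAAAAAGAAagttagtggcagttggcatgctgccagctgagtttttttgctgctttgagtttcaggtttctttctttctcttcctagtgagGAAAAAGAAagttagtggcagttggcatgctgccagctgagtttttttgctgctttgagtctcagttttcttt
In ISG15 the matches overlap in a single stretch, and IFI44L holds 2 stretches. Of the 35 tested interferon-stimulated genes with a promoter in RefSeq, 21 (60.0%) held GAAANNGAA, against 5.29% of the tested genes and 7.06% of all promoters. The share was 4.55% among the hypoxia targets with a promoter.

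Of 24 tested cytosolic heat shock genes, 4 were upregulated, and 2 of these are near-identical copies. HSPA1A, the inducible HSP70, was at 21.5, 13.8 and 24.1 FPKM in the controls and at 53.7, 51.0 and 76.2 FPKM after treatment (log2 fold change 1.57 ± 0.13 SE, adjusted p = 0.0225). HSPA1B, a near-identical copy whose reads cannot be cleanly told from those of HSPA1A, had a log2 fold change of 1.45. HSPA8, the constitutive HSP70, went from 54.4, 63.0 and 86.9 FPKM to 193, 209.7 and 158 FPKM, and DNAJB1, an HSP40 partner of HSP70, had a log2 fold change of 0.75. No member of the list fell at an adjusted p-value under 0.05. HSPB7, a small heat shock protein gene that was not on the list and was named after its values were seen, fell from 7.77 ± 0.716 to 3.40 ± 0.578 FPKM (SD, n = 3, adjusted p = 0.0393). Without adjustment 6 members of the list were higher and none was lower at that threshold. The median of the list was 0.09, with 0.36, 0.13 and -0.02 in pairs 1 to 3. HSP90AA1 and HSPB1 had log2 fold changes of 0.06 and -0.06, and HSPD1, which encodes a chaperone of mitochondria, had -0.07. These genes were named after their values were seen.
The core of the heat shock element, GAANNTTC, which reads the same on both strands, is in capitals in the promoters of both HSP70 genes.
HSPA1A (chr6:31815293-31815542, plus strand): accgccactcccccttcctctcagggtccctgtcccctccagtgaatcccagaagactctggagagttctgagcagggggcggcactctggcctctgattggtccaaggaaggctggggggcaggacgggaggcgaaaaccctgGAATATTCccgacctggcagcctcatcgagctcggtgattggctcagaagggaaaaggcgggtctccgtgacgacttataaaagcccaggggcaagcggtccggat
HSPA8 (chr11:123062137-123062386, minus strand): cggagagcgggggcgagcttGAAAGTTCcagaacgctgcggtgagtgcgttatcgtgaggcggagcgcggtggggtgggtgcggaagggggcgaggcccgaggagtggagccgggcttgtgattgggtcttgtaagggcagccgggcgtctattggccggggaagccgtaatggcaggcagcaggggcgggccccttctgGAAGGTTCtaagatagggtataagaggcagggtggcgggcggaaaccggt
Of 21 heat shock members with a promoter, 7 (33.3%) held these letters, against 3.86% of the tested genes and 5.85% of all promoters.

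Immediate early genes, which cells switch on within minutes of a stimulus, split in both directions. All 3 NR4A orphan nuclear receptors were downregulated. NR4A1 was at 14.8, 12.4 and 13.1 FPKM in the controls and at 5.51, 4.18 and 4.05 FPKM after treatment (log2 fold change -1.38 ± 0.12 SE, adjusted p = 0.0257). NR4A3 and NR4A2 had log2 fold changes of -1.18 and -0.97. The AP-1 subunits FOS (-0.96) and JUNB (-0.77) and the phosphatase DUSP1 (-0.64) also fell, each with no overlap between groups. BTG2, an antiproliferative gene that is also a p53 target, rose from 7.09, 6.83 and 7.09 FPKM to 16.3, 15 and 19.6 FPKM (log2 fold change 1.16 ± 0.12 SE, adjusted p = 0.0329). Of 29 tested members, 6 fell and 1 rose at an adjusted p-value under 0.05. At an unadjusted p-value under 0.05, 11 were lower and 4 higher, and the median was -0.19.

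Of 28 tested p53 targets, CDKN1A and BTG2 rose at an adjusted p-value under 0.05. CDKN1A, the CDK inhibitor p21, was at 55.6, 55.8 and 58.8 FPKM in the controls and at 87.6, 94.5 and 89.9 FPKM after treatment (log2 fold change 0.67 ± 0.10 SE, adjusted p = 0.0475). At an unadjusted p-value under 0.05, 10 targets were higher and 2, SESN2 and PLK2, were lower, with a median of 0.21. The brakes and drivers of the G1 to S step, 20 tested genes, had a median of -0.10 and 1 call, CDKN1A. DNA replication genes had no call at an adjusted p-value under 0.05. Of the 40 tested, 11 were lower and 1 higher at an unadjusted p-value under 0.05, and the median was -0.23. Mitosis and G2/M genes had no call either, with 11 of 45 lower and 2 higher at an unadjusted p-value under 0.05. Their medians differed in sign between pairs, at 0.11, -0.30 and -0.45. RRM2, the regulated subunit of ribonucleotide reductase, had a log2 fold change of -0.67 (adjusted p = 0.0861), and PLK1, a mitotic kinase, one of -0.46 (adjusted p = 0.15).

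The lists of NF-kB targets and of secreted factors of senescent cells gave 1 call at an adjusted p-value under 0.05. Over all genes tested the share called was 0.721%. Of 20 tested NF-kB targets, PTGS2, the inducible cyclooxygenase, fell from 12.7, 14 and 15 FPKM to 6.46, 5.48 and 6.20 FPKM (log2 fold change -1.08 ± 0.13 SE, adjusted p = 0.0369). No other member passed the adjusted threshold. At an unadjusted p-value under 0.05, 2 of the 20 were higher and 5 lower, against 6.85% and 7.57% of all genes. Among 18 tested secreted factors of senescent cells no gene passed. Without adjustment, 5 of the 18 were higher and 3 lower at that threshold, against the same shares of all genes. IL6, on both lists, was at 0.875, 1.99 and 2.37 FPKM in the controls and at 2.26, 3.68 and 4.43 FPKM after treatment (log2 fold change 0.71, adjusted p = 0.0978), and the groups overlapped.

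Of 30 tested NRF2 antioxidant genes, AKR1B1, an aldose reductase, fell from 952, 1109 and 1111 FPKM to 526, 561 and 657 FPKM (log2 fold change -0.86 ± 0.10 SE, adjusted p = 0.0369), while 10 were higher and 2 lower at an unadjusted p-value under 0.05. The second lower gene was NFE2L2, which encodes NRF2 itself (log2 fold change -0.60, adjusted p = 0.256). Of the higher genes, NQO1 (0.70) and FTL (0.64) had the smallest p-values, with adjusted p-values of 0.0527 and 0.0757. Among 33 genes of cholesterol and fatty acid synthesis, ACSS2, which makes acetyl-CoA from acetate, rose (log2 fold change 0.82 ± 0.11 SE, adjusted p = 0.0445), 9 were higher and 1 lower at an unadjusted p-value under 0.05, and the median was 0.18. In the ATF4 stress response, PHGDH, the first enzyme of serine synthesis, rose from 39.0, 40.7 and 30.1 FPKM to 73.8, 75.4 and 88.9 FPKM (log2 fold change 1.10 ± 0.15 SE, adjusted p = 0.0459). No other gene of the 30 tested on that list was called, 4 were higher and 7 lower at an unadjusted p-value under 0.05, and its median was -0.06. CHAC1, a glutathione-degrading enzyme, had a log2 fold change of -0.71 (adjusted p = 0.154). The metallothionein MT1E (1.21), the tRNA synthetase WARS (0.81) and the ribosomal protein RPS27 (0.93) were each the sole call of their list at an adjusted p-value under 0.05. Cytosolic ribosomal protein genes had fold changes above 0 in 76 of 79, against 5610 of all 12060 genes tested, and a median of 0.20. At an unadjusted p-value under 0.05, 27 were higher, against 6.85% of all genes. The treated libraries lay wholly above the controls in 4, against 6.23% of all genes.

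SIRT3 itself, on chromosome 11 at 215458 to 236931 (GRCh38), was not called. It was at 3.70, 4.30 and 3.46 FPKM in the controls and at 3.36, 4.95 and 4.82 FPKM after treatment, so that the groups overlapped (log2 fold change 0.15 ± 0.15 SE, adjusted p = 0.711). Of the other sirtuins, SIRT1 had the smallest p-value, with a log2 fold change of -0.45 and an adjusted p of 0.23, and all of its treated libraries lay below the controls. The list of known SIRT3 substrates, with 20 tested genes and a median of -0.11, gave 1 call, ACSS2. This gene encodes the cytosolic acetyl-CoA synthetase and stood on the list in error, since the mitochondrial enzyme that SIRT3 deacetylates is encoded by ACSS1. No other gene of the list was called. At an unadjusted p-value under 0.05, 2 of the 20 were higher and 4 lower, against 6.85% and 7.57% of all genes. The treated libraries lay wholly above the controls in 3 and wholly below in 7, against 6.23% and 8.16% of all genes. The median and these counts include ACSS2. Nuclear subunits of the respiratory chain had a median of 0.00 over 76 genes, and mitochondrial ribosomal proteins one of 0.04 over 76 genes, with no call in either. Protein-coding genes of the mitochondrial genome had medians of 0.41, 0.19 and -0.25 in pairs 1 to 3. The share of reads from that genome was 9.64% and 13.5% in pair 1, 8% and 8.74% in pair 2, and 8.72% and 7.71% in pair 3 (control and treated). Its part in other results was not tested, and with libraries scaled without mitochondrially encoded genes 31 genes rose and 33 fell.

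**Figure D3:**
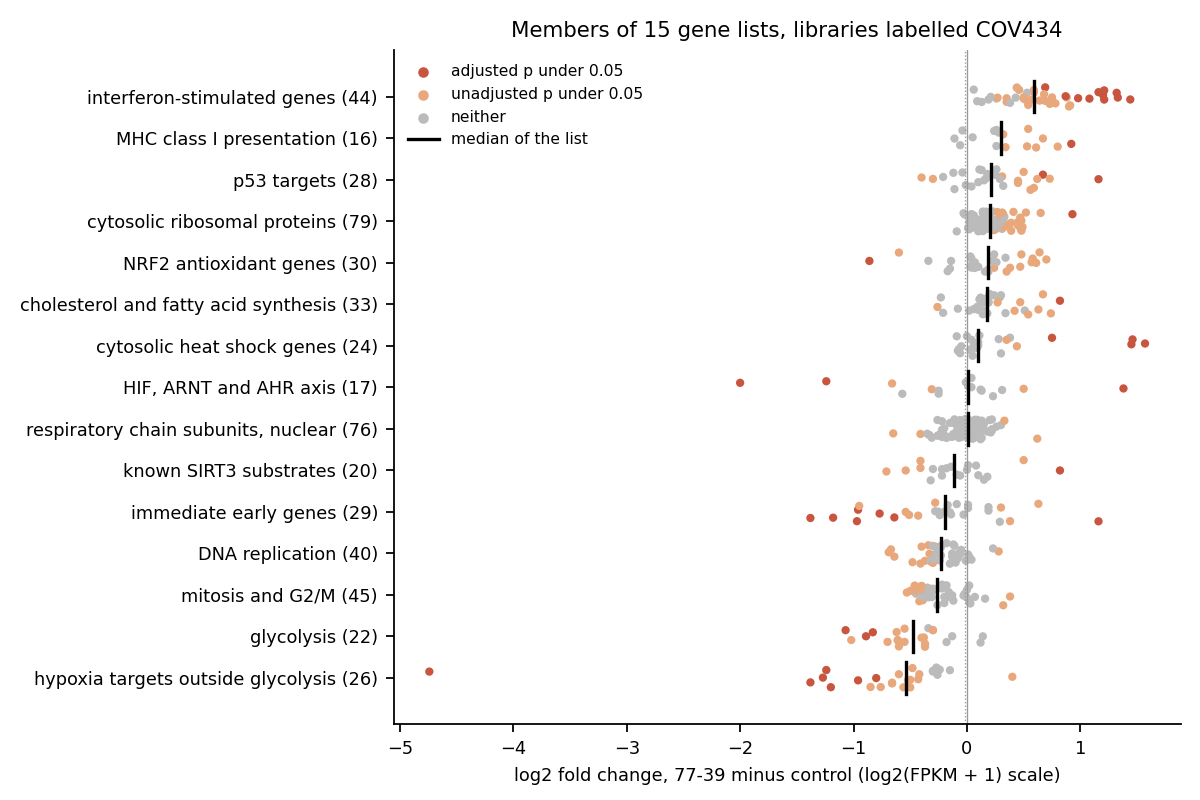
Log2 fold change of 77-39 over control (x axis, log2(FPKM + 1) scale) for each tested member of 15 gene lists (rows, number of tested members in parentheses) in the libraries labelled COV434. Black bars are list medians, from -0.54 for hypoxia targets to 0.59 for interferon-stimulated genes, and the dotted line is the median of all genes at -0.02.

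Of the 87 genes, 44 were in none of the 41 lists and 11 were not protein coding, of which 6 were shorter than 200 bases. Among those that fell, A2M, a protease inhibitor of plasma, went from 2.73, 2.57 and 2.81 FPKM to 0.0942, 0.238 and 0.184 FPKM. C11orf86 went from 86.8 ± 26.0 to 33.7 ± 10.4 FPKM (SD, n = 3). Abundant genes among them were ATP1B3, a beta subunit of the sodium pump, at 471 and 199 FPKM, and RHOB, a small GTPase, at 325 and 162 FPKM. PEG10, an imprinted gene of retrotransposon origin, was among those that rose, from 14.6, 10.2 and 10.1 FPKM to 28.5, 19.1 and 18.6 FPKM. Granulosa identity genes (9 tested), steroid hormone synthesis (18), SWI/SNF subunits (21), lysosome (38), actins (25), YAP targets (25), the TGF-beta, activin and BMP pathway (28), the IGF axis (15), HOX genes (21) and ER chaperones (25) had no call at an adjusted p-value under 0.05, with medians from -0.14 to 0.04. In the TGF-beta, activin and BMP list 7 were lower and 1 higher at an unadjusted p-value under 0.05, and BMP6, a ligand that was not on the list and was named after its values were seen, fell from 25.7 ± 4.28 to 12.7 ± 1.5 FPKM (SD, n = 3, adjusted p = 0.0393).

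The response was set beside that of the libraries labelled KGN by an interaction of label and treatment over all 12 libraries. It differed at an adjusted p-value under 0.05 for 481 genes (3.99%), 241 (2.00%) with a higher and 240 (1.99%) with a lower fold change in the libraries labelled COV434. Of the 87 genes called in the latter, 67 were among the 481. Only 51 of the 87 had a mean of at least 1 FPKM in the libraries labelled KGN, and 33 met both conditions. The interaction fit took a spread shared by both labels, although the libraries labelled COV434 varied more than those labelled KGN. It may therefore understate the spread of the COV434 response, and its 481 calls cannot be weighed directly against the 87. The counts of 241 and 240 depended on which pairs were included. Leaving out any KGN pair left 1 to 9 genes higher and 4 to 9 lower, and leaving out COV434 pair 2 left 21 and 14. Leaving out COV434 pair 3 left 100 and 130, while leaving out COV434 pair 1 gave 921 and 1310. The cause was not tested.

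Interferon-stimulated genes differed between the labels. Their median was 0.59 in the libraries labelled COV434 and 0.00 in those labelled KGN, and 12 of 44 had a higher fold change in the former by the interaction test and none a lower one. In the libraries labelled KGN 18 of the 44 reached a mean of 1 FPKM. ISG15 was expressed in both, with a mean of 45.5 FPKM in KGN controls and 34.6 FPKM after treatment there, and its fold change differed by 1.71 ± 0.12 (SE, adjusted p = 0.00344). IFI35 rose in the libraries labelled COV434 and had a log2 fold change of 0.75 in those labelled KGN, a difference of 0.33 with an adjusted p of 0.243.

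Glycolysis genes had medians of -0.48 in the libraries labelled COV434 and -0.59 in those labelled KGN, with an interaction for 1 gene in each direction of the 22. LDHA had log2 fold changes of -1.07 and -0.97, a difference of -0.10 ± 0.12 (SE, adjusted p = 0.65), and PGK1 had -0.83 and -0.93. Hypoxia targets outside glycolysis had medians of -0.54 and -0.16, and 8 of 26 had a lower fold change in the libraries labelled COV434, although BNIP3 (-1.20 and -0.98) and BNIP3L (-0.96 and -1.02) gave no interaction call (adjusted p = 0.487 and 0.851). Of the 26, 17 reached a mean of 1 FPKM in the libraries labelled KGN. ADM, EGLN3 and NDRG1 were at 0.067, 0.067 and 0.305 FPKM in KGN controls, which left little room for a fall on the log2(FPKM + 1) scale. After treatment they were at 0.042, 0.136 and 0.137 FPKM there, so that ADM and NDRG1 were lower and EGLN3 higher. CA9 was also lower after treatment in the libraries labelled KGN, at 0.321 FPKM (30 reads) in controls and 0.0119 FPKM (1 read) after it. Its log2 fold change there was -0.38, and its difference of -4.35 stands beside this low starting level. Of 29 immediate early genes, 8 had a lower fold change in the libraries labelled COV434 and 1 a higher one, and 23 reached a mean of 1 FPKM in those labelled KGN. NR4A1, FOS and NR4A3 were at 0.389, 0.623 and 0.83 FPKM in KGN controls, whereas NR4A2 was at 99.2 FPKM. DNA replication genes had medians of -0.23 and -0.66, and 10 of 40 had a higher fold change in the libraries labelled COV434. Among them, MCM2, a subunit of the replicative helicase, had log2 fold changes of -0.13 and -1.08, while RPA2, a subunit of the single-strand binding complex, had 0.28 and -0.33. Mitosis genes had medians of -0.26 and -0.64, and 10 of 45 had a higher fold change in the libraries labelled COV434, with values of 0.32 and -0.35 for CKS1B and -0.46 and -1.05 for PLK1.

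**Figure D4:**
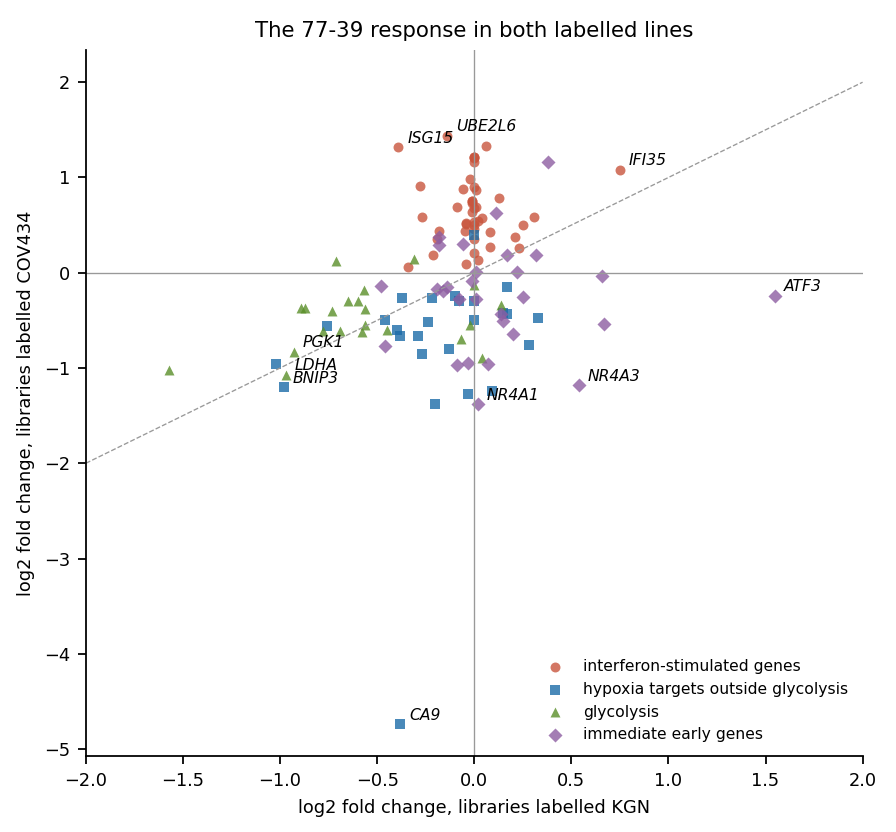
Log2 fold change of 77-39 over control in the libraries labelled KGN (x axis) against that in the libraries labelled COV434 (y axis), both on the log2(FPKM + 1) scale, for the tested members of 4 gene lists. The dashed line marks equal fold changes. Interferon-stimulated genes lie above 0 on the y axis with a median of 0.00 on the x axis, LDHA, PGK1 and BNIP3 lie near the dashed line, and CA9 lies at -4.74 on the y axis.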

How the data were processed

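RNA of the cells was sequenced, and the authors deposited 1 table of FPKM per gene for 12 libraries, 6 of them labelled COV434. Per the labels, libraries were made with an Illumina TruSeq RNA kit. HISAT2 2.0.5 is named in the submitters' processing notes, which also list mouse builds, and the labels' protocol speaks of retinas, whereas 58690 of the 58735 genes carried the human coordinates of GENCODE release 29 (GRCh38). Strand settings of the counting are not given in the sources used here. All columns of per-sample values were mapped to samples by their library names.

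FPKM times gene length gave whole reads for 100% of values above 0 (tolerance 0.05), with 16440143 to 18280415 reads per library labelled COV434. Genes whose FPKM averaged 1 or more over these 6 libraries were fitted on log2(FPKM + 1) with limma 3.58.1 (R 4.3.3; lmFit, eBayes with a trend), and library numbers entered as blocks. These were used because the rule that defined the comparison named same-numbered libraries as blocks. In the tested values, same-numbered control and treated libraries deviated together from their group means (correlations over genes of 0.4, 0.474 and 0.166 for numbers 1 to 3). Number 3 was the weakest, since control 3 and treated 2 had 0.154. In the libraries labelled KGN these correlations were -0.016, -0.018 and -0.019. All p-values are two-sided and were adjusted by Benjamini and Hochberg over every gene tested. The difference between labels was the interaction over 12 libraries, with each label and number as a block and a spread shared by both labels. The fits were tested on simulated data.

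The members, the 41 gene lists and the rules were chosen with earlier results of these data known. The rule named the 15 genes with the largest fold change and the 10 with the smallest p-value in each direction at an adjusted p-value under 0.05 with the same sign in all 3 pairs, called list members, 2 members per list and direction at an unadjusted p-value under 0.05, sirtuins, markers, and the 5 genes with the smallest interaction p-value per direction. Not all are printed, and some genes are not reported here. Promoters are from RefSeq (GRCh38.p14). Intervals and floors cover counting error only. Alternatives were other pseudocounts, filters, scalings and models, libraries left out, and, added after seeing the data, removal of lowess trends (span 0.3) over GC content or over gene length.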

Additional observations from a re-analysis of the deposited data

Results flagged for a closer look

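The response to 77-39 differed between the labels COV434 and KGN for 241 genes with a higher and 240 genes with a lower fold change in the libraries labelled COV434, by the interaction at an adjusted p-value under 0.05 in limma. The 5 with the smallest p-value on the higher side were ISG15 (difference 1.71), ACTA2 (1.52), NRM (1.13), PEG10 (1.29) and HSPA1B (1.60). ISG15, PEG10 and HSPA1B rose in the libraries labelled COV434. ACTA2, smooth muscle actin, and NRM, a protein of the nuclear membrane, were not called there, with log2 fold changes of 0.65 and 0.17, and had -0.87 and -0.97 in the libraries labelled KGN. The 5 on the lower side were CA9 (-4.35), ATF3 (-1.79), ARNT2 (-2.29), NR4A3 (-1.72) and NFIL3 (-1.44). CA9 was lower after treatment in the libraries labelled KGN too, from a low level of 0.321 FPKM to 0.0119 FPKM. ATF3, a stress-response factor, stood at 9.53, 10.0 and 10.7 FPKM in the COV434 controls and at 6.79, 8.61 and 9.99 FPKM after treatment (adjusted p = 0.461), and went from a mean of 8.40 to 26.5 FPKM in the libraries labelled KGN. NFIL3, a repressor of circadian genes, fell in the libraries labelled COV434 (log2 fold change -0.94) and had 0.50 in those labelled KGN. Groups of 3 libraries are too small for the test of single outlying samples.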

How the results depend on the processing

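In the libraries labelled COV434, 39 genes rose and 48 fell at an adjusted p-value under 0.05. These counts were 1 and 4 without the block of library numbers, 21 and 31 with a pseudocount of 0.1 FPKM, 0 and 1 with the filter lowered to a mean of 0.1 FPKM, and 0 and 0 with no filter, where more genes were tested. They were 126 and 128 over protein-coding genes, 126 and 108 with voom on the recovered reads, 772 and 904 with arrayWeights, 1 and 6 with no trend in eBayes, 88 and 94 after removing the trend with GC content, and 63 and 71 after removing that with gene length. Leaving out 1 pair gave 0 to 80 and 1 to 111 (28 fell without pair 3). The cause of these shifts was not tested. arrayWeights gave pair 2 a weight of 3.36 against 0.387 for pair 1 and 0.767 for pair 3. At an unadjusted p-value under 0.05, 826 were higher and 913 lower, against 424 and 541 without the block and 1847 and 2101 with arrayWeights, and 398 to 1104 and 430 to 1588 with 1 pair left out. At 0 adjusted calls, with no filter 1049 were higher and 1086 lower at an unadjusted p-value under 0.05, and with the lowered filter 1021 and 1066.

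The interaction counts of 241 and 240 became 149 and 180 without the block, and 1 to 921 and 4 to 1310 with 1 pair of either label left out. All 87 genes kept their direction wherever tested, which leaving out a pair could not change. CA9 kept its call under all alternatives but no filter (adjusted p = 0.075). The median of hypoxia targets, -0.54, was -0.65 with a pseudocount of 0.1 FPKM, -0.64 with voom, -0.60 with arrayWeights and -0.59 to -0.55 with 1 pair left out. The counts of members at an unadjusted p-value under 0.05 in the lists of hypoxia, glycolysis, interferon-stimulated, immediate early and heat shock genes stayed within 1.5 times in every alternative. Of the other lists' medians, YAP and TEAD targets (-0.14) turned to 0.01 with no filter and HOX genes (-0.08) to 0.00 with arrayWeights. Within pairs, the median difference ran from 0.22 in the fifth of genes with the lowest GC content to -0.11 in the highest in pair 1, from -0.13 to 0.05 in pair 2 and from -0.26 to 0.01 in pair 3. Genes under about 3 reads per library were not resolved at this depth.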
